A study of Mus musculus with 9 samples.

Results

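The glucocorticoid receptor gene Nr3c1 and 7 genes that glucocorticoids are known to induce, Fkbp5, Tsc22d3, Klf9, Per1, Ddit4, Dusp1 and Sgk1, were followed in 3 kinds of mouse tissue: normal thymus, tumors of the thymus, and such tumors that the submitters describe as XIST resistant. Xist RNA coats and silences an X chromosome. These are 8 of the 18193 genes on the array that a probe set names alone. Their probe sets were all probe sets to which the platform's gene table gives 1 of these 8 symbols and no other, which were 24 of the 45101 probe sets on the Affymetrix Mouse430_2 array. Of the 24, 17 passed a filter that asked for at least 3 of the 9 arrays to reach the median signal of that array. The other 7 ranged from 0.0403 to 26.0 in signal and were not tested, but each of the 8 genes had at least 1 probe set past the filter. Each of the 3 groups held 3 arrays of total RNA. The labels give no strain, genotype, age or treatment for any group beyond the words normal, tumor and XIST resistant, and nothing in them says that separate mice stand behind the replicates. The p-values therefore cover array-to-array spread, part of which may be technical. Values are MAS5 signals in arbitrary units, and signals of different probe sets are not comparable with each other.

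The glucocorticoid receptor is a hormone-activated transcription factor held in the cytoplasm by heat shock proteins and immunophilins until a steroid binds. It then enters the nucleus, binds palindromic response elements and induces a small set of genes found in many tissues, several of which restrain the receptor itself or other signalling pathways. In the thymus, glucocorticoids are known for killing immature thymocytes that carry both coreceptors, CD4 and CD8. Every target studied here also answers to other inputs, such as the clock for Per1, low oxygen and amino acid stress for Ddit4, and growth factor or stress kinases for Dusp1 and Sgk1.

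The promoters of 4 targets are shown, each with at least 1 of 4 response motifs near an annotated start. Per1, which also held such a motif, is not shown. RefSeq promoter windows of 300 bases (250 before a start and 50 after it, build GRCm38.p6) were searched on both strands for the complete palindromic receptor element (AGAACA, any 3 bases, then TGTTCT), its single arm AGAACA, the cyclic AMP response element TGACGTCA and the E-box CACGTG bound by clock and MYC proteins. The complete element stood in 3 of 32851 windows (0.00913%), and Sgk1 was 1 of the 3 genes. It begins 189 bases before the start of 1 of 6 annotated Sgk1 windows, chr10:21993640-21993939 on the plus strand. The same window held an E-box 246 bases and a further single arm 242 bases before the start. The arms of the complete element also count as matches to the single arm, which 19.0% of windows held. A Tsc22d3 window, chrX:140600473-140600772 on the minus strand, held a single arm in reverse 185 bases before the start. Fkbp5 (chr17:28486100-28486399, minus strand) held an E-box 169 bases before the start, a motif of 7.15% of windows. Dusp1 (chr17:26508423-26508722, minus strand) held a cyclic AMP response element 143 bases before the start, found in 1.79% of windows, and an E-box 126 bases before it. The Klf9 and Ddit4 windows held none of the 4 motifs, and Per1 held an E-box 166 bases before the start of 1 of its 2 windows. Sequences run 5′ to 3′ along the gene, with the motif named for each in capitals (the receptor element in Sgk1, the single arm in Tsc22d3, the E-box in Fkbp5, the cyclic AMP response element in Dusp1). A match describes only letters in these windows.
Sgk1: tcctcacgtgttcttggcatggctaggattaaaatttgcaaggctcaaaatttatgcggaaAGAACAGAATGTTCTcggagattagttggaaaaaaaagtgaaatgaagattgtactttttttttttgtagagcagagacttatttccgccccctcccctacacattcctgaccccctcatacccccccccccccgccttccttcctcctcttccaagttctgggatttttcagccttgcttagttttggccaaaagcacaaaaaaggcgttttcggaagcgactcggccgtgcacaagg
Tsc22d3: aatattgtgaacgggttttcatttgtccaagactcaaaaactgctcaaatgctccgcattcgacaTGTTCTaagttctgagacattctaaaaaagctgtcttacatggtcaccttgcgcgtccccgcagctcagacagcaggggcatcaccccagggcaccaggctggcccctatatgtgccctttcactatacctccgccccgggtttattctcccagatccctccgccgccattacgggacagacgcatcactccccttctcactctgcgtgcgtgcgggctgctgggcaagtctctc
Fkbp5: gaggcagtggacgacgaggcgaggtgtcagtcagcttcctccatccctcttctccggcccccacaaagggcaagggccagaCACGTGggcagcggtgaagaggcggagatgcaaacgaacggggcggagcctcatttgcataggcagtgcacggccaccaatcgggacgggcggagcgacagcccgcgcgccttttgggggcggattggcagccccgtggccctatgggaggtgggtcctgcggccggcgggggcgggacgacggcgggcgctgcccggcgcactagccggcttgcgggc
Dusp1: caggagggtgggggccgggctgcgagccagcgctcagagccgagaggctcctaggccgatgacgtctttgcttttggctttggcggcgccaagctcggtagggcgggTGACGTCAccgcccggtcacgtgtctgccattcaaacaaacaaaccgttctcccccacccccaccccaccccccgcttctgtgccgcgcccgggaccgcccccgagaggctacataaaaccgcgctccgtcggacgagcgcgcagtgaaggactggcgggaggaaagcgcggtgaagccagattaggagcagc

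Poly-A spike-in control rows were near 0 on 4 arrays (mean signal 2.01 to 2.87) and present on 5 (125 to 211). The 4 arrays were 1 of normal thymus, 1 of tumor and 2 of resistant tumor, and the 5 were 2, 2 and 1. Changes are also given within each set, where the tumor change on arrays without spike-in signal is 1 array against 1 and no within-set value was tested. Array medians were 23.6 to 25.8 without spike-in signal and 13.9 to 17.8 with it. The ratio of 3′ to 5′ signal of the beta-actin control rows was 3.16 on tumor 2 and 2.64 on resistant tumor 3, against 1.63 to 1.98 on the other arrays. Tumor 2 also had the highest Per1 signal of all arrays. Resistant tumor 3 had the highest Sgk1 signal of all arrays and the highest Ddit4 signal of its group. The part of this ratio in the changes below was not tested. Markers of the labelled tissue were checked. Of 8 markers of thymocytes that carry CD4 and CD8, 7 were lower in tumors and 7 in resistant tumors than in normal thymus, with summed signals of 16038 to 17354 in normal thymus, 5498 to 6016 in tumors and 4992 to 6509 in resistant tumors. Cd8a and Cd8b1 lay under the array median on every tumor and resistant tumor array. Thymic epithelial markers were lower in 8 of 9 cases in each comparison, with sums of 5393 to 5757, 91.4 to 336 and 98.1 to 161 in the same order. Fibroblast and stromal markers were higher in 4 of 8 in tumors and in 5 of 8, with 1 lower, in resistant tumors, with sums of 1144 to 1236, 2560 to 5795 and 3261 to 7505. Markers of mature T cells (6 and 5 of 7), B cells (4 and 1 of 4), dendritic cells (4 and 2 of 5) and neutrophils (6 and 4 of 7) were lower in tumors and resistant tumors, those of macrophages in 1 of 7 in each, and those of endothelium were higher in 4 of 7 and lower in 1 in each. Adipocyte markers were lower in 2 of 3 in tumors and in none in resistant tumors, and the sums over the 5 on the array were 955 to 1189, 511 to 965 and 752 to 1423, with Pparg and Lep under the array median in every group. Many markers on the array lay under the array median on every tumor array. These were 6 of 9 for thymic epithelium, 2 of 7 for mature T cells and 4 of 5 for B cells. For dendritic cells they were 5 of 6 and for neutrophils 4 of 7. Resistant tumors gave the same counts except 5 of 7 for neutrophils. A tested marker under the median in both tumor groups passed the filter only through normal thymus, so its lower call was largely fixed by the filter. In bulk tissue, fewer cells of a type and less RNA per cell cannot be told apart. The part of these cell types in the changes below was not tested.

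Against normal thymus, tumors had lower signals of Nr3c1, Tsc22d3 and Klf9 and higher signals of Fkbp5, Ddit4 and Dusp1. These 6 of the 8 genes were called (limma, adjusted p under 0.05 over 11671 genes), where 42.4% of all genes tested were called, and for 6 of 8 the groups did not overlap, against 55.3% of all genes. In resistant tumors Tsc22d3 and Klf9 were lower and Fkbp5 and Sgk1 higher, which made 4 of 8 called against a background of 43.3%. Their groups did not overlap for 7 of 8, against 54.6% of all genes. The members therefore did not move in 1 direction in either comparison. In tumors 3 rose and 3 fell, the receptor gene Nr3c1 among the latter, where 23.3% of all genes rose and 19.1% fell. In resistant tumors 2 rose and 2 fell, where 23.1% of all genes rose and 20.2% fell. With a block for the spike-in set 6 members were called in tumors and 7 in resistant tumors (all genes 58.7% and 58.8%), and 6 in each had an unadjusted p under 0.05 (all genes 50.3% and 50.7%). Both comparisons use the same normal thymus arrays. Without normal thymus 2 or without normal thymus 3 the tumor count was 3 of 8. Among the 17 probe sets tested one by one, 9 were called in tumors and 8 in resistant tumors, where 35.9% and 36.7% of all 20917 probe sets were. With the block these were 12 and 13 of 17, against 53.9% and 53.5%. Between the tumor groups 0 of 17 were called by limma (0.215% of all), 1 with the block (0.937%).

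**Figure D1:**
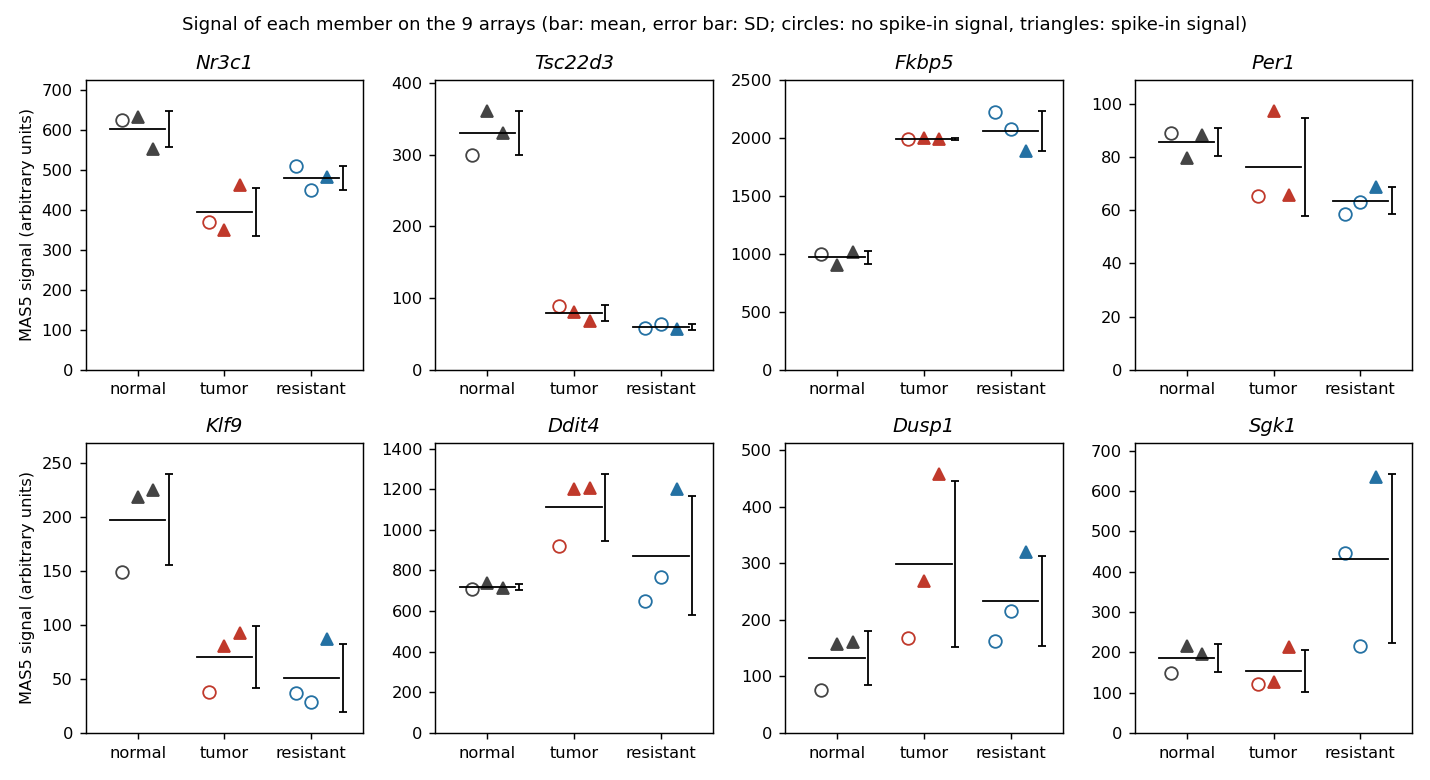
MAS5 signal (vertical axes, arbitrary units, from 0) of the probe set standing for each of the 8 genes on the 3 normal thymus, 3 tumor and 3 resistant tumor arrays, with group means as horizontal lines and SD as error bars. Open circles are arrays without spike-in signal and filled triangles arrays with it. Tsc22d3 is at most 89.1 on every tumor and resistant tumor array and at least 299 in normal thymus, and Fkbp5 spans 1884 to 2225 over the tumor and resistant tumor arrays.

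The receptor itself was measured by 4 tested probe sets. On the one with the highest mean log2 signal, 1421867_at, Nr3c1 signals were 625, 631 and 551 in normal thymus, 368, 350 and 462 in tumors and 508, 450 and 480 in resistant tumors. Every tumor and every resistant tumor array lay below every normal thymus array, while the ranges of tumors and resistant tumors overlapped. The change was -0.62 ± 0.13 on the log2 scale in tumors (SE, n = 3 arrays per group, adjusted p = 0.0033), a 1.54-fold fall. In resistant tumors it was -0.33 ± 0.13 and did not pass (adjusted p = 0.0608), although it did with a spike-in block (-0.32, adjusted p = 0.0385) and without tumor 3 (adjusted p = 0.0383). Probe set 1460303_at gave 668, 601 and 582 in normal thymus, 457, 299 and 346 in tumors and 561, 520 and 437 in resistant tumors, and a tumor change of -0.77 ± 0.16 (adjusted p = 0.00561 over all probe sets). Its change in resistant tumors, -0.29 ± 0.16, passed only with a spike-in block (adjusted p = 0.2 without it, 0.00687 with it). The third, 1457635_s_at, was at 407, 236 and 200 in normal thymus, with 295, 128 and 140 in tumors and 377, 328 and 243 in resistant tumors. Its groups overlapped and it was called in neither comparison (-0.62 ± 0.36 and 0.22 ± 0.36, adjusted p = 0.211 and 0.676), although its tumor change passed with a spike-in block (adjusted p = 0.00319). The dimmest tested probe set, 1421866_at, stayed between 8.35 and 31.6 and was not called either. The suffix s marks a probe set that can match more than 1 transcript. Subtracting the array medians ended the tumor call of Nr3c1 (adjusted p = 0.444). Under that scaling the middle change over all genes became 0.24 in place of 0.05. Relative to the median of all genes Nr3c1 stood at -0.67 with and without the scaling. The scaling shifts all genes of an array alike, so this value could not change.

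Fkbp5 encodes an immunophilin that joins the receptor's chaperone complex and lowers its affinity for hormone, a negative feedback on the receptor. On probe set 1416125_at its signals were 994, 905 and 1012 in normal thymus, 1991, 2004 and 1987 in tumors and 2225, 2080 and 1884 in resistant tumors. All 6 tumor and resistant tumor arrays exceeded every normal thymus array. The 3 tumor arrays differed by less than the arrays of the other groups, with an SD of 8.78 against 57.2 in normal thymus and 172 in resistant tumors. The rise was 1.04 ± 0.09 in tumors (2.06-fold, adjusted p = 1.94e-05) and 1.09 ± 0.09 in resistant tumors (2.12-fold, adjusted p = 1.55e-05). On arrays lacking spike-in signal and on the others it was 1.002 and 1.06 in tumors, and 1.11 and 0.98 in resistant tumors. A dimmer probe set of the gene, 1448231_at, rose as well, from 125, 142 and 158 in normal thymus to 285, 257 and 447 in tumors and 331, 251 and 227 in resistant tumors (1.18 ± 0.22 and 0.91 ± 0.22, adjusted p = 0.0031 and 0.0111). The remaining one, 1447736_at, did not exceed 1.48 on any array.

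Tsc22d3 encodes GILZ, a leucine zipper protein that binds and restrains NF-kappaB and AP-1 and is among the most regularly used readouts of receptor activity. It moved the opposite way to Fkbp5. Probe set 1420772_a_at had signals of 299, 361 and 330 in normal thymus, 89.1, 80.4 and 67.7 in tumors and 58.2, 63.9 and 56.1 in resistant tumors. The 3 ranges did not overlap at all. The fall was -2.07 ± 0.15 in tumors (4.19-fold, adjusted p = 6.55e-06) and -2.47 ± 0.15 in resistant tumors (5.55-fold, adjusted p = 3.04e-06). Probe set 1425281_a_at, fell by almost the same amount, -2.00 ± 0.21 and -2.50 ± 0.21, from 149, 163 and 170 to 31.5, 39.6 and 51.4 in tumors and 25.9, 27.4 and 32.5 in resistant tumors. Probe set 1425557_x_at did not follow them and was at 66.9, 41.8 and 57.3 in normal thymus, 83.9, 36.3 and 31.2 in tumors and 52.7, 57.5 and 37.6 in resistant tumors (-0.25 ± 0.37 and -0.16 ± 0.37, adjusted p = 0.653 and 0.763). The suffix x marks a probe set with probes that can match other genes. The fourth, 1444365_at, was below the filter at 2.41 to 16.4. Averaging the 3 tested probe sets gave -1.44 and -1.71, both still called (adjusted p = 7.17e-05 and 2.88e-05).

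Klf9 encodes a zinc finger repressor that the receptor induces directly in many cell types. On 1456341_a_at its signals were 149, 219 and 225 in normal thymus, 37.5, 80.1 and 92.1 in tumors and 37.4, 29.0 and 86.7 in resistant tumors. Arrays without spike-in signal gave the lower value in each group, and normal thymus did not overlap the other groups. The fall was -1.58 ± 0.44 in tumors (2.98-fold, adjusted p = 0.0161) and -2.10 ± 0.44 in resistant tumors (4.27-fold, adjusted p = 0.00395), and its value was -1.99 on arrays lacking spike-in signal and -1.37 on the others in tumors, with -2.18 and -1.35 in resistant tumors. The second probe set, 1428288_at, showed less spread, with 130, 113 and 95.6 in normal thymus, 43.3, 32.8 and 44.2 in tumors and 50.3, 36.7 and 38.8 in resistant tumors (-1.49 ± 0.21 and -1.43 ± 0.21, adjusted p = 0.000558 and 0.000722). Probe set 1428289_at fell by -2.71 ± 0.84 in resistant tumors (adjusted p = 0.0315), where resistant tumor 2 stood at 2.79 and the other 2 arrays at 25.5 and 44.6, and had -1.33 ± 0.84 in tumors (adjusted p = 0.256). The fourth, 1436763_a_at, had means of 22.3 ± 2.04 (SD, n = 3) in normal thymus, 12.2 ± 3.42 in tumors and 11.5 ± 3.40 in resistant tumors, and passed only with a spike-in block (adjusted p = 0.0902 and 0.0641 without it, 0.0339 and 0.0396 with it). The other 3 probe sets were below the filter. The tumor call of 1456341_a_at was lost without normal thymus 2 or normal thymus 3 (adjusted p = 0.0565 and 0.0561) and with equal array medians (adjusted p = 0.162).

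Per1, a core repressor of the circadian clock, was not called. Its only probe set gave 89.2, 79.9 and 88.4 in normal thymus, 65.6, 97.6 and 65.6 in tumors and 58.6, 63.3 and 69.0 in resistant tumors. Tumor 2 was above all normal thymus arrays and the other tumor arrays below them, whereas all resistant tumor arrays were below. The changes were -0.19 ± 0.19 (adjusted p = 0.438) and -0.43 ± 0.19 (adjusted p = 0.087). Without tumor 2, which enters the shared estimate of the spread, the change in resistant tumors passed (adjusted p = 0.0454).

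**Figure D2:**
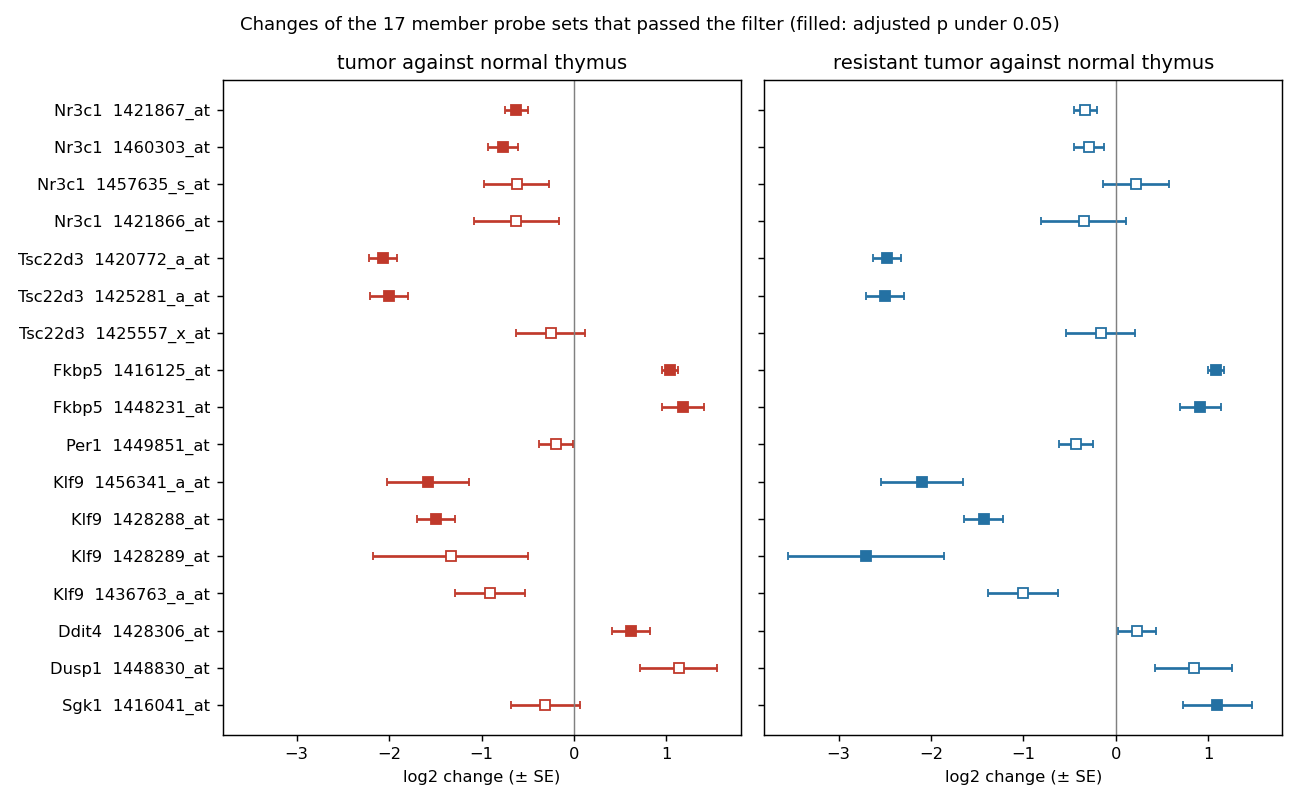
Log2 change with SE (horizontal axes) of the 17 member probe sets that passed the filter, in tumors (red) and resistant tumors (blue) against normal thymus; filled squares had an adjusted p under 0.05 over all probe sets. A pair of Fkbp5 probe sets lies to the right of 0 and a pair of Tsc22d3 probe sets near or beyond -2 in both panels, while 1425557_x_at lies near 0.

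Ddit4 encodes REDD1, which inhibits the growth kinase complex mTORC1. Signals were 708, 737 and 712 in normal thymus, 921, 1202 and 1208 in tumors and 651, 766 and 1203 in resistant tumors. The normal thymus arrays lay close together, every tumor array was above them, and the resistant tumor arrays fell on both sides. The rise in tumors was 0.62 ± 0.21 (1.53-fold, adjusted p = 0.035), and the change in resistant tumors was 0.23 ± 0.21 (adjusted p = 0.397). The tumor call was lost without any 1 of normal thymus 1, 2 or 3 or tumor 2 or 3 (adjusted p = 0.0818, 0.0776, 0.0856, 0.11 and 0.111), and also with equal array medians (0.252), no filter (0.066) and no trend (0.0605). The tumor change was 0.38 on arrays lacking spike-in signal and 0.73 on the others. In resistant tumors the change was -0.0043 within the arrays without spike-in signal and 0.73 within those with it, and it passed with a spike-in block (0.36, adjusted p = 0.0447).

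Dusp1 encodes a phosphatase that switches off p38 and JNK kinases. It gave 76.7, 158 and 162 in normal thymus, 168, 269 and 458 in tumors and 163, 216 and 320 in resistant tumors. All 6 tumor and resistant tumor arrays were above all normal thymus arrays, though the lowest exceeded the highest normal thymus array only narrowly, and arrays without spike-in signal were low in every group. The rise in tumors was 1.13 ± 0.41 (2.19-fold, adjusted p = 0.0485). In the limma fit over all probe sets the same change did not pass (adjusted p = 0.0594). The change in resistant tumors was 0.84 ± 0.41 (adjusted p = 0.127). On arrays lacking spike-in signal and on the others it was 1.13 and 1.14 in tumors and 1.29 and 1.0004 in resistant tumors, and with a spike-in block both passed (adjusted p = 0.000471 and 0.000548). Without the block, the tumor call was lost when normal thymus 1, 2 or 3, tumor 2 or 3 or resistant tumor 2 was left out (adjusted p = 0.164, 0.0625, 0.0559, 0.105, 0.174 and 0.0658). It was also lost with equal array medians (adjusted p = 0.169), no filter (0.09), no trend (0.0739), the mean over probe sets (0.0517) and a fit of only the groups compared (0.0521).

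Sgk1 encodes a kinase related to AKT that controls ion channels and FOXO factors. Its signals were 149, 216 and 195 in normal thymus, 122, 126 and 213 in tumors and 446, 216 and 635 in resistant tumors. Resistant tumors 1 and 3 were above every other array, while resistant tumor 2 (216.3) exceeded the highest normal thymus array (216.0) and the highest tumor array (213.3) by almost nothing. Sgk1 rose by 1.10 ± 0.37 in resistant tumors (2.14-fold, adjusted p = 0.0357) and changed by -0.31 ± 0.37 in tumors (adjusted p = 0.539). The call in resistant tumors was lost without normal thymus 1, 2 or 3 or resistant tumor 1 or 3 (adjusted p = 0.107, 0.0594, 0.0746, 0.0937 and 0.102) and with equal array medians (adjusted p = 0.247), no filter (0.0695) and no trend (0.0569).

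Between resistant tumors and tumors none of the 8 genes was called by limma, where 42 of 11671 genes (0.36%) were. At an unadjusted p under 0.05 there were 3, Tsc22d3, Nr3c1 and Sgk1, against 7.23% of all genes. The count of all genes varied when 1 array was left out: it was 20 without normal thymus 2, 19 without normal thymus 3, 70 without resistant tumor 3, 8 without tumor 2 and 10 without tumor 3. Sgk1 had the largest difference among the 8, 1.41 on the log2 scale with a 95% interval of 0.58 to 2.23 (2.65-fold, adjusted p = 0.233), and it was 1.35 on arrays lacking spike-in signal and 1.95 on the others. With a spike-in block it passed (1.62, adjusted p = 0.0259, background 1.23%), as it did without resistant tumor 2 (adjusted p = 0.0378). Tsc22d3 was lower by -0.41 (interval -0.74 to -0.07, adjusted p = 0.526), and its groups did not overlap, as for Sgk1 and for 10.4% of all genes. Nr3c1 was at 0.30 (0.01 to 0.58, adjusted p = 0.658). For Fkbp5 the difference was 0.05 with an interval of -0.15 to 0.25. The intervals of Klf9 (-1.50 to 0.46) and Dusp1 (-1.21 to 0.62) reached beyond -1, so a halving could not be told from no difference for them with these arrays.

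**Figure D3:**
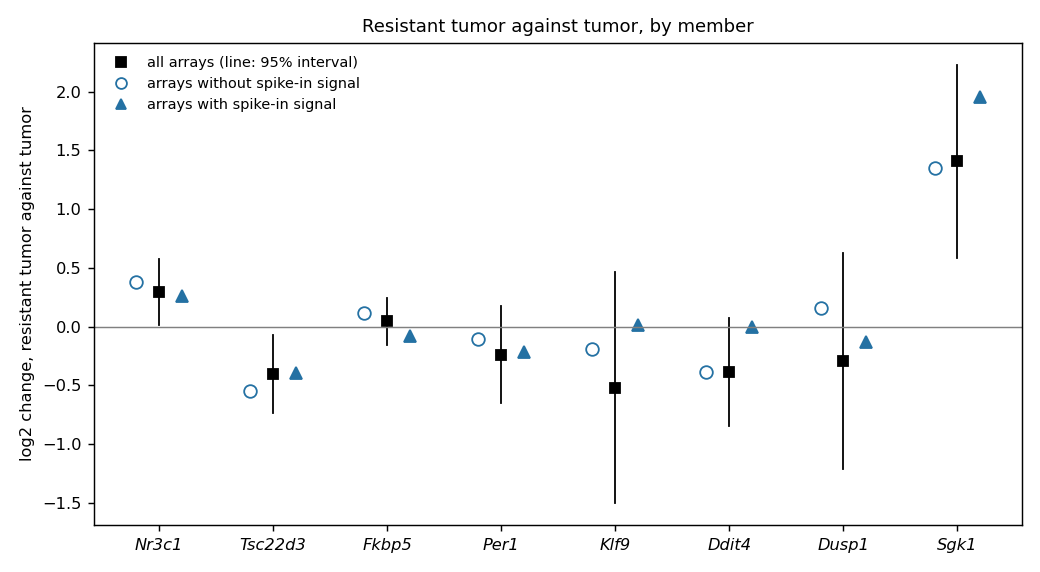
Log2 difference of resistant tumors from tumors (vertical axis) for each member over all arrays (black squares, lines are 95% intervals), within the arrays without spike-in signal (open circles) and within those with it (triangles). Sgk1 stands at 1.41 with both within-set values above 1, and the all-array values of the other 7 genes lie between -0.52 and 0.30.

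The wider pathway was read from gene lists. A gene under the array median on every array of a group has only a bound there, so its change is given as at least so many fold. Where only some arrays of a group lie under the median, the measured change is given, and its size is less certain. Of 29 tested genes of a list of 33 other glucocorticoid-induced genes, 15 fell and 7 rose in tumors, and 15 fell and 7 rose in resistant tumors, with median changes of -0.41 and -0.68 against 0.05 and 0.06 over all genes. All genes tested were lower in 19.1% and higher in 23.3% of cases in tumors. Rgs2, a regulator of G protein signalling, fell by -4.06 ± 0.30 in tumors and -3.75 ± 0.30 in resistant tumors. Il7r, the receptor of a T cell survival cytokine, fell by -3.79 ± 0.26 and -3.04 ± 0.26. Tumor means of Rgs2 (15.4) and Il7r (16.0) were near the medians of the tumor arrays, 13.9 to 24.8, so the sizes of these falls are uncertain. Gpr65, a proton-sensing receptor, was under the array median on all tumor arrays and at least 7.06-fold lower there. Klf15, a metabolic zinc finger factor, was under the median in both groups and at least 1.97-fold and 1.66-fold lower. Klf15 passed the filter only through normal thymus, so its lower call, counted among the 15 above, was largely fixed by the filter. The metallothioneins Mt1 and Mt2, which also answer to metals, rose by 2.28 and 2.98 in tumors and 2.15 and 3.01 in resistant tumors. Both metallothioneins, and the listed genes below beyond the 4 with the largest tumor change in their list, were named after their values were seen.

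A list of 10 genes covered synthesis and metabolism of the hormone, and 9 of them had a probe set that names them alone. Only 4 of the 10 passed the filter and were tested, and Cyp11a1, H6pd and Hsd11b1 fell in both comparisons, with medians of -1.06 and -0.94. Cyp11a1, which starts steroid synthesis, went from a mean signal of 74.1 ± 8.94 (SD, n = 3) to 27.9 ± 7.27 in tumors and 24.3 ± 9.37 in resistant tumors (-1.43 ± 0.34 and -1.69 ± 0.34). Hsd11b1, which regenerates active hormone, and H6pd, which supplies its cofactor, fell by -1.05 ± 0.17 and -1.07 ± 0.20 in tumors and by -0.57 ± 0.17 and -1.31 ± 0.20 in resistant tumors. Among 10 tested chaperones and immunophilins of the receptor, Ppp5c, Stip1 and Hspa8 rose and Dnaja1 and Dnajb1 fell in both comparisons, none by more than 0.80, with list medians of 0.15 and 0.21. Of 11 coregulators, Ep300 (-0.99 ± 0.13) and Ncoa1 (-0.60 ± 0.12) fell and Carm1 rose (0.57 ± 0.13) in tumors. In resistant tumors 4, Ep300, Ncoa1, Med14 and Nrip1, fell, and the list medians were -0.35 and -0.43. In tumors 5 of 10 chaperones and immunophilins and 8 of 11 coregulators were not called, and in resistant tumors 5 and 7. Of all genes, 42.4% and 43.3% were called, so without a spike-in block the coregulators stood below that share and the chaperones near it. With the block, 8 coregulators fell and 1 rose in tumors, and 8 fell in resistant tumors. All genes were then called in 58.7% and 58.8% of cases, so the coregulators stood above that share. Of the chaperones and immunophilins, 4 rose and 2 fell in tumors with the block, and 6 rose and 2 fell in resistant tumors. Of 16 genes that glucocorticoids repress, only 5 were tested. The middle change of the list was that of Cxcl10 in both comparisons. It was under the array median on every tumor and resistant tumor array and passed the filter only through normal thymus. The list medians are therefore only bounds and are not given. The adhesion molecule genes Vcam1 and Icam1 and the chemokine genes Ccl5 and Cxcl10 fell in both comparisons, Vcam1 by -4.57 ± 0.25 in tumors and Cxcl10 at least 6.42-fold, and Ccl2, another chemokine gene, was at least 1.34-fold higher in tumors and 1.73-fold in resistant tumors.

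Lists of the other inputs of the targets were set beside them. Of all genes tested, 23.3% were higher and 19.1% lower in tumors, and 23.1% and 20.2% in resistant tumors. For Ddit4, the list of hypoxia and integrated stress response genes rose in 17 of 21 cases in tumors and 18 of 21 in resistant tumors, and none fell, with medians of 1.57 and 1.55. Asns, an enzyme induced by amino acid lack, rose by 2.97 ± 0.43 and 2.54 ± 0.43, Trib3 by 2.53 ± 0.24 and 1.82 ± 0.24, and Vegfa by 2.28 ± 0.18 and 2.38 ± 0.18. Chac1 was at least 4.48-fold higher in tumors. For Dusp1, the immediate early list went the other way: 10 of 19 genes fell and 1, Fos, rose in tumors, and 11 fell and 1, Atf3, rose in resistant tumors, with medians of -1.19 and -1.16. Nr4a1 fell by -4.08 ± 0.39, Egr1 by -2.68 ± 0.17 and Zfp36 by -2.34 ± 0.19 in tumors, and Egr2 was at least 6.83-fold lower. For Per1, 5 of 14 tested clock genes fell, Nr1d1, Nr1d2, Cry1, Dbp and Arntl, and Per2 (1.48 ± 0.35) and Cry2 (1.35 ± 0.23) rose in tumors, with the same 5 lower and Per2, Cry2 and Ciart higher in resistant tumors. The clock medians were -0.14 and 0.09, and the former turned to 0.04 with equal array medians. Of the 14 clock genes, 7 were not called in tumors and 6 in resistant tumors, where 42.4% and 43.3% of all genes were called. Per2 thereby rose where Per1 was not called. The part of these inputs in the members' changes was not tested.

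**Figure D4:**
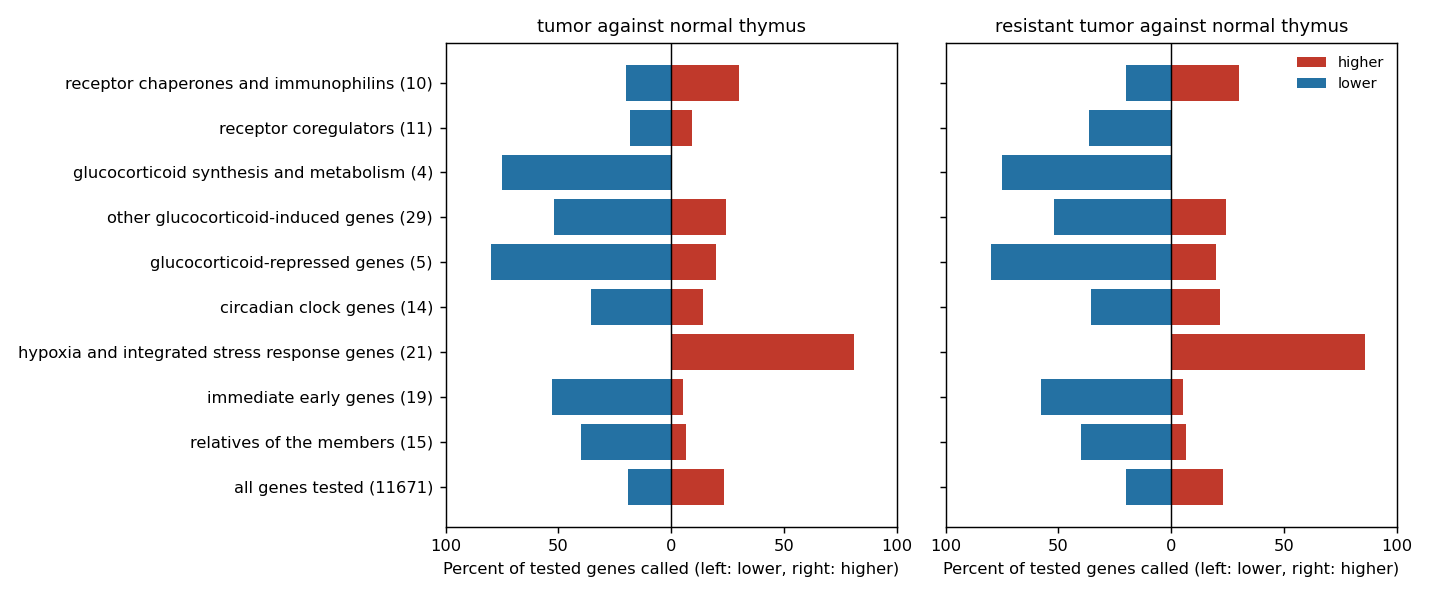
Percent of the tested genes of each list (number tested in brackets) that were called higher (red, to the right) or lower (blue, to the left) in tumors and in resistant tumors against normal thymus, with all 11671 genes in the bottom bars. Hypoxia and integrated stress response genes were called higher in 17 and 18 of 21 cases with none lower, and 15 of 29 other glucocorticoid-induced genes were lower in each comparison.

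Of 15 tested close relatives of the members, 6 fell and 1, Per2, rose in each comparison, with median changes of -0.65 and -0.48, where 19.1% and 20.2% of all genes fell. The TSC22 family relative Tsc22d1 fell by -1.93 ± 0.37 in tumors and -2.73 ± 0.37 in resistant tumors and Tsc22d4 by -1.68 ± 0.13 and -1.78 ± 0.13, and Tsc22d2 was called in resistant tumors (-0.76 ± 0.24). Pgr, the progesterone receptor gene, was under the array median on all tumor arrays and at least 2.02-fold lower there. Sgk3 fell by -3.14 ± 0.23 and -2.61 ± 0.23, while Sgk1 was called in neither direction in tumors. Klf13 fell by -1.34 ± 0.15 and -1.22 ± 0.15. Dusp2, another MAP kinase phosphatase, fell by -1.85 ± 0.26 in tumors, where Dusp1 rose. No gene of these 9 lists was called between resistant tumors and tumors. Some genes stand in more than 1 list, Per2 in 3 of them.

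By the root mean square distance between log2 profiles centred over the 9 arrays, the genes most like Nr3c1 were Aida (0.107), Tgfbr2 (0.11) and Tmem184c (0.124), where the median gene was at 0.476. Their tumor changes were -0.47, -0.51 and -0.60. Those most like Tsc22d3 were Rmnd5a (0.188), Dgke (0.194) and Slfn2 (0.194), with a median gene at 1.17 and tumor changes of -2.15, -2.13 and -2.51. The 9 points share 3 groups and the spike-in sets, so such likeness describes these arrays only. These genes were picked by their profiles, so similar tumor changes follow from the choice.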

How the data were processed

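Total RNA of 9 mouse samples was measured on Affymetrix Mouse430_2 arrays. The deposited values are intensity values, MAS5 signals per the submitters' processing notes, 1 column per array, which the authors had scaled to a trimmed mean near 100.03. No depth exists for arrays, and their number limits the precision. The members and the gene lists were chosen with earlier results of these data known. Values were floored at 1 before taking log2. Of the 34945 probe sets with 1 symbol, those at or above the array median on at least 3 of 9 arrays were kept, and each gene was represented by the probe set whose log2 signal was highest on average. The 204 probe sets whose gene ID had no RefSeq match kept the platform's symbol. Groups were compared over all 9 arrays with limma 3.58.1 (lmFit, eBayes with a trend, Benjamini-Hochberg adjustment over all genes or all probe sets) in R 4.3.3, and scripts were tested on simulated data. For the spike-in and beta-actin ratio checks, tumor 1 had its 64 control probe sets re-sorted, since their order differed from that on other arrays. Named genes were the 8 members, up to 4 called genes per pathway list with the largest tumor change, any list gene called between tumor groups, and the 3 genes nearest to Nr3c1 and to Tsc22d3. A fold written as "at least" sets the brighter group's mean log2 against the dim group's mean of, per array, the higher of the array median and the gene's own signal. Alternatives were quantile normalization, equal array medians, an added offset of 50, no filter, a stricter filter, no trend, the mean over probe sets, blocks for replicate number and spike-in set, fits of only the groups compared, and leaving out each array.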

Additional observations from a re-analysis of the deposited data

How the results depend on the processing

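Tsc22d3 and Fkbp5 kept their call against normal thymus in both tumor groups without any 1 array and with equal array medians. With equal array medians the genes called fell to 2287 in tumors and 2034 in resistant tumors (43.2% of them higher, against 53.4%) and to 18 between the tumor groups (22.2% higher, against 35.7%), and 2 members stayed called in tumors. Between the tumor groups 22 genes were called with no filter, 23 with a stricter one, 27 with the mean over probe sets, 8 with only the groups compared and 8 to 70 without 1 array. A block for the spike-in set called 143 genes and 1 member between the tumor groups, and 7 members in resistant tumors. Leaving out 1 array gave 3 to 6 members called in tumors and 0 to 1 between the tumor groups. The Fkbp5 difference between the tumor groups turned to -0.20 with equal array medians and -0.11 with the mean over probe sets (-0.011 to 0.11 without 1 array). That of Dusp1 turned to 0.029 with the spike-in block (-0.65 to 0.077 without 1 array), and the Ddit4 change in resistant tumors was -0.025 to 0.42 without 1 array. The cause of these moves was not tested. A block for the replicate number gave 5967, 6085 and 92 genes and 6, 6 and 0 members. Of 9 same-number pairs, the 7 that also share a spike-in set correlated at 0.37 to 0.65, and resistant tumor 2 correlated with normal thymus 2 at -0.34 and with tumor 2 at -0.30. Number and spike-in set cannot be told apart in those 7 pairs, not every array correlated best with its own number, and the numbers were not taken as a pairing. Pairs of arrays from different groups that share a spike-in set but not a number correlated at 0.36 to 0.53. Per1 was not tested under the stricter filter.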
